A study of Mus musculus with 12 samples.

Results

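The array of mouse neural progenitor cells that overexpressed Etv6 was compared with the arrays of cells that overexpressed Gatad2b and Nfxl1, which lay on the same slide. These are 3 of the 12 arrays in the series, with 1 array per group and no replicates, so no gene carries a p-value and every value below rests on 1 hybridisation per group. The cells were of the 129/Ola strain and carried the open reading frame on a retrovirus with a neomycin resistance gene. About 95% of infected cells expressed the insert, G418 was added at 24 h to remove cells without it, and RNA was taken at 72 h. All 3 groups shared these steps and differed in the open reading frame. The EGFP array (cells given the EGFP frame) and the mock array (handling not given in the sources used here) lay on another slide and served as a check. The Etv6 slide also held the Esx1 array, which stood apart from the other 3. Of 18148 genes tested, 219 lay at least 2-fold beyond both references on the Etv6 array, 216 of them higher and 3 lower.

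Etv6 (also called TEL) is a transcription factor of the ETS family, which binds DNA at sites with a GGAA core. It represses its targets, self-associates through its pointed domain and recruits corepressors. It is best known from blood-forming stem cells, where its gene is a frequent partner in leukaemia fusions. Gatad2b is a subunit of the nucleosome remodelling and deacetylase complex, and Nfxl1 is a zinc-finger protein related to NFX1.

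Levels are log2 intensities relative to the 75th percentile of the same array, so that 0 is that percentile. A gene was tested where the image software called its spot well above background on at least 1 of the 3 arrays, and 16528 genes met that mark on all 3 (called fully measured below). A gene was called higher where its Etv6 level exceeded both reference levels by at least 1 log2 and the Etv6 spot was well above background. Values under the lowest signal well above background on an array were raised to it (the floor, -6.46 on Etv6, -6.60 on Gatad2b and -6.45 on Nfxl1). Where the dimmer side was not well above background, the fold is a lower bound, given as "at least". The 75th percentile of intensity was 857 units on Etv6, 823 on Gatad2b and 933 on Nfxl1, and between 62.5% and 64.5% of probes were well above background. Probes spotted 10 times gave a median SD of 0.06 log2 within the Etv6 array, or 0.167 for levels under -3. That is the spread between spots of 1 hybridisation and not between cultures.

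The cells were checked against their label with 18 neural progenitor markers, of which 15 were tested. The intermediate filament genes Nes (3.52, 3.61 and 3.58 on Etv6, Gatad2b and Nfxl1) and Vim (6.56, 6.41 and 6.77) were high on all 3 arrays, as was the receptor phosphatase gene Ptprz1 (8.35, 8.35 and 8.33). Sox2, a transcription factor of neural stem cells, lay at 0.79, 0.28 and 0.24. Sox1, a factor of the early neural plate, was dim at -5.18, -5.61 and -5.46, and Fabp7, Nr2e1 and Emx2 were not well above background on any of the 3 arrays. No marker on the list was called on Etv6.

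The probes for the overexpressed genes did not single out their arrays. The probe used for Etv6 (chr6:134282789-134282848, mm7) read -0.34 on the Etv6 array, -0.14 on Gatad2b and -0.16 on Nfxl1, so of the 3 arrays it was lowest on Etv6. The other Etv6 probe (chr6:134279914-134279973) read -0.19, -0.33 and -0.26 and was the highest of the 12 arrays by a small margin. The probe used for Gatad2b read 0.84 on its own array, 0.73 on Etv6 and 0.91 on Nfxl1. The probe used for Nfxl1 read 0.86 on its own array, 0.57 on Etv6 and 0.72 on Gatad2b. Whether any of these probes lies within the cloned open reading frames is not known from the sources used here, so they check nothing about the labels. The array labelled Etv6 is called the Etv6 array on that label alone.

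The genes beyond both references of the slide on the Etv6 array were nearly all higher there. Of the genes tested, 216 (1.19%) were higher and 3 (0.0165%) were lower. Among the fully measured genes, 124 (0.75%) were higher and 2 (0.0121%) were lower. The same rule applied to the Gatad2b array against the other 2 called 150 genes higher (0.827%) and 31 lower (0.171%), or 34 (0.206%) and 24 (0.145%) among the fully measured ones. On the Nfxl1 array it called 76 higher (0.419%) and 23 lower (0.127%), or 20 (0.121%) and 19 (0.115%). The 3 comparisons use the same 3 arrays and are not independent of each other. Higher and lower genes were nearer in number on both references than on Etv6. They were also nearer when Etv6 was set against 1 array at a time. It had 311 genes higher and 177 lower than Gatad2b, 304 and 89 against Nfxl1, 310 and 282 against EGFP, and 276 and 288 against mock. A normexp background correction, which draws dim signals together, left 59 higher and 0 lower genes on Etv6, against 12 and 4 on Gatad2b and 7 and 3 on Nfxl1. Of the 30 higher genes named by rule it kept the call of 20, and Krt8, Cldn6, Krt87, Rasgrf1, Rassf9, Dcn, Mx1, Syt1, Sparcl1 and Pdgfra lost it. At 1.5-fold, a threshold added later, 378 fully measured genes were higher on Etv6 and 52 lower, against 111 and 119 on Gatad2b and 92 and 147 on Nfxl1.

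**Figure D1:**
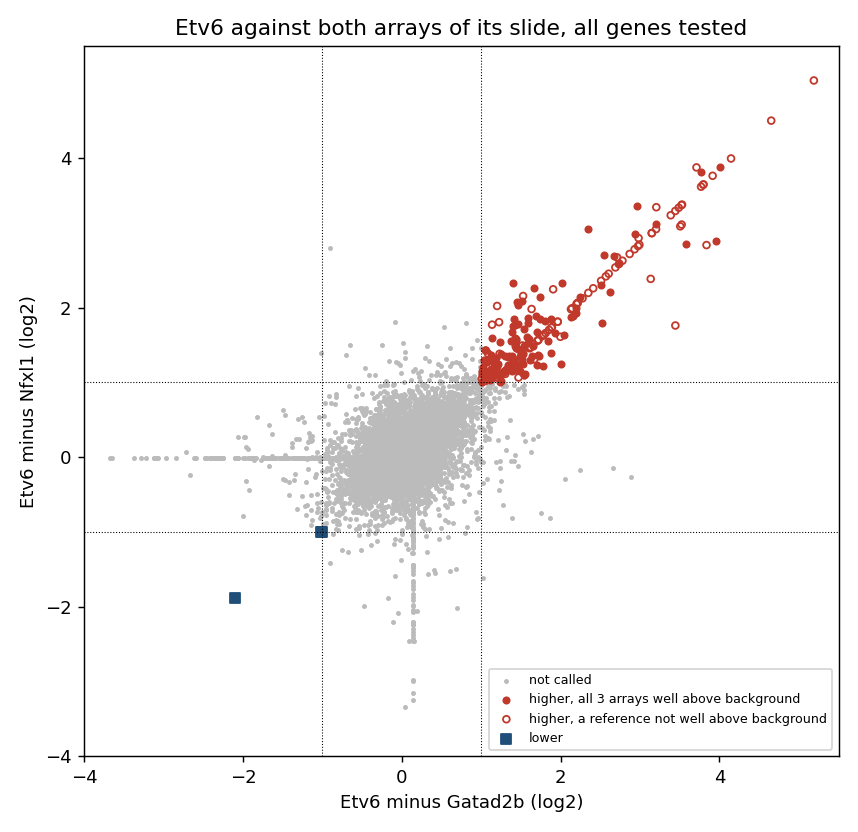
Difference between Etv6 and Gatad2b (horizontal, log2) against the difference between Etv6 and Nfxl1 (vertical, log2) for the 18148 genes tested, with dotted lines at 2-fold. Red points are the 216 higher genes, filled for the 124 fully measured ones and open for the other 92, and blue squares are the 3 lower genes, where Sox7 and Olfr1131 nearly coincide. The straight grey arms are genes at the floor on 2 arrays.

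Away from the called genes the 3 arrays were close. Over the fully measured genes, the median absolute difference was 0.1344 log2 between Etv6 and Gatad2b, 0.1272 between Etv6 and Nfxl1 and 0.1188 between both references. The EGFP and mock arrays differed by 0.0712 on the same measure, and Esx1 differed from Etv6 by 0.4865. The median over all genes tested of Etv6 minus the reference mean was -0.02 log2.

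The higher genes were mostly dim. Their median level was -3.45 on Etv6 and -5.71 on the references, against -0.72 and -0.73 for all genes tested. When the fully measured genes were ranked by mean level and cut in 3, 94 of the 124 higher ones fell in the dim part, 28 in the middle part and 2 in the bright part. On the Gatad2b array those counts were 32, 2 and 0, and on Nfxl1 19, 1 and 0. Etv6 therefore had 30 higher genes in the middle and bright parts, where the references had 2 and 1. The difference from the reference mean had a median of 1.54 log2 over the 216 genes and ranged from 1.01 to 5.11.

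Scara5 had the largest of the fully measured differences before the normexp correction. It encodes a scavenger receptor that takes up ferritin (probe at chr14:60624531-60624590, mm7). Its level was -1.85 on Etv6, -5.85 on Gatad2b and -5.72 on Nfxl1, and -5.70 on EGFP and -5.87 on mock. The 4 arrays other than Etv6 spanned 0.17 log2 in this gene, and Etv6 was 15.4-fold above the reference mean. A second Scara5 probe was not well above background, so this difference rests on 1 probe. The difference of 3.94 log2 became 2.07 after normexp, below that of Ccdc88b (3.23), and as the mean of both probes it was also below Ccdc88b (3.79).

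Ccdc88b encodes a coiled-coil protein of the Hook-related family that is known from immune cells (chr19:6664493-6664552). It read 0.90 on Etv6, -2.87 on Gatad2b, -2.92 on Nfxl1, -2.93 on EGFP and -3.01 on mock. Etv6 was 13.8-fold above the references, and the 4 arrays other than Etv6 spanned 0.14 log2.

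Akr1c18 encodes the 20-alpha-hydroxysteroid dehydrogenase that inactivates progesterone (chr13:4019629-4021004). It reached 2.41 on Etv6, against -0.80 on Gatad2b and -0.70 on Nfxl1, and -1.29 on EGFP and -1.28 on mock. The difference was 8.94-fold. Of the 216 higher genes only Csrp2 was brighter on Etv6.

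Pthlh encodes parathyroid hormone-related protein, a secreted factor of cartilage and epithelia (chr6:147330723-147330782). It read 1.73 on Etv6, -0.95 on Gatad2b, -0.96 on Nfxl1, -1.17 on EGFP and -1.19 on mock, a 6.41-fold difference. On a second Pthlh probe, Etv6 lay 2.65 log2 above Gatad2b (-1.65) and 2.71 above Nfxl1 (-1.71), so both probes gave a mean difference of 2.68 log2.

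Keratins, the intermediate filaments of epithelial cells, were among the higher genes. Krt76, a type II keratin of oral epithelium (chr15:101870780-101870839), read -0.07 on Etv6, -3.65 on Gatad2b and -2.91 on Nfxl1, with -4.35 on EGFP and -4.02 on mock. It was 9.30-fold above the reference mean, and the references themselves lay 0.74 log2 apart. Krt8, the type II keratin of simple epithelia (chr15:101983072-101983131), read -2.70, -4.29 and -4.23, with -4.45 on EGFP and -4.24 on mock, a 2.95-fold difference. A second Krt8 probe read -2.77, -4.41 and -4.31. Krt18, the usual partner of Krt8, was brighter at 3.97 on Etv6, 2.93 on Gatad2b and 3.26 on Nfxl1, and missed the threshold against Nfxl1.

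The whole list of 36 simple epithelial keratin and junction genes had 25 tested members, of which 3 were called higher and 0 lower, where 1.19% of all genes were called higher. Its median difference was 0.20 log2 against -0.02 over all genes, and 14 of 25 members (56%) lay above both references against 30.9% of all genes. Krt8 is a marker given with the comparison, and the list was chosen with earlier results known. These values were therefore partly set by selection and are a description. Besides Krt8, the called members were Perp and Cldn6, and only Perp kept its call after normexp (Krt8 0.89 log2, Cldn6 0.38 and Perp 1.23). Perp, a desmosome component, read -3.09 on Etv6, was not well above background on Gatad2b and read -6.18 on Nfxl1, at least 9.83-fold higher. Cldn6, a tight junction protein of embryonic epithelia, read -4.63, -5.68 and -6.06, a 2.36-fold difference. Epcam, the epithelial adhesion molecule, was not called at -3.48, -4.47 and -4.24, nor was Cdh1 (E-cadherin) at -4.64, -5.09 and -5.03. Both remained dim, and 11 members, among them Ocln, Dsg2, Esrp1 and Ovol1, were not well above background on any of the 3 arrays. The summed intensity of the list, relative to the 75th percentile, was 41.1 on Etv6, 33.1 on Gatad2b and 35.1 on Nfxl1, and 30 on EGFP and 31.7 on mock. Intensities add on a linear scale, so bright members such as Krt18, which was not called, weigh most in this sum. It does not show a rise across the list. In a bulk sample a change in few cells and a change in the level per cell cannot be told apart.

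Of the stratified and hair keratins, 15 of the 33 with a probe were tested and 2 were higher, Krt76 and Krt87, where 1.19% of all genes were. Krt76 is a marker given with the comparison, and Krt87 was tested only through its Etv6 spot. The count was thus partly set by selection and says nothing about the list as a whole. Krt87, a hair keratin listed in the files as Krt83, read -5.24 on Etv6 and was not well above background on either reference, at least 2.44-fold higher, but it read -5.81 on EGFP and was not 2-fold beyond it, and its difference was 0.50 log2 after normexp. The basal and suprabasal keratins showed no such difference. Krt14 read -5.16, -4.85 and -5.28, Krt5 -6.30, -6.59 and -5.70, and Krt10 0.27, 0.46 and 0.43. The median difference of the list was 0.13 log2.

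Families of the other leading genes did not move with them. Akr1c18, Scara5 and Tbc1d30 are markers given with the comparison, and their lists were chosen with earlier results known. The call of 1 member in each of these lists was thus set by selection, where 1.19% of all genes were called higher. Of 14 tested aldo-keto reductases only Akr1c18 was called, and the list's median was 0.07 log2. Its relatives Akr1c14 (-1.74, -2.13 and -2.00) and Akr1c13 (-3.61, -3.74 and -3.59) stayed within 2-fold. Of 8 tested scavenger receptors only Scara5 was called, and Scara3 read -1.37, -1.07 and -1.47. None of 13 tested genes of iron uptake, storage and export was called, with a median of 0.03 log2, and the transferrin receptor gene Tfrc read 2.12, 2.03 and 2.13. Of 35 tested TBC-domain genes, whose proteins switch off Rab GTPases, only Tbc1d30 was called, and it was tested only through its Etv6 spot. Tbc1d2 came next at 0.19, -0.75 and -0.73, under the threshold. None of the 8 tested genes of steroid hormone synthesis was called.

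**Figure D2:**
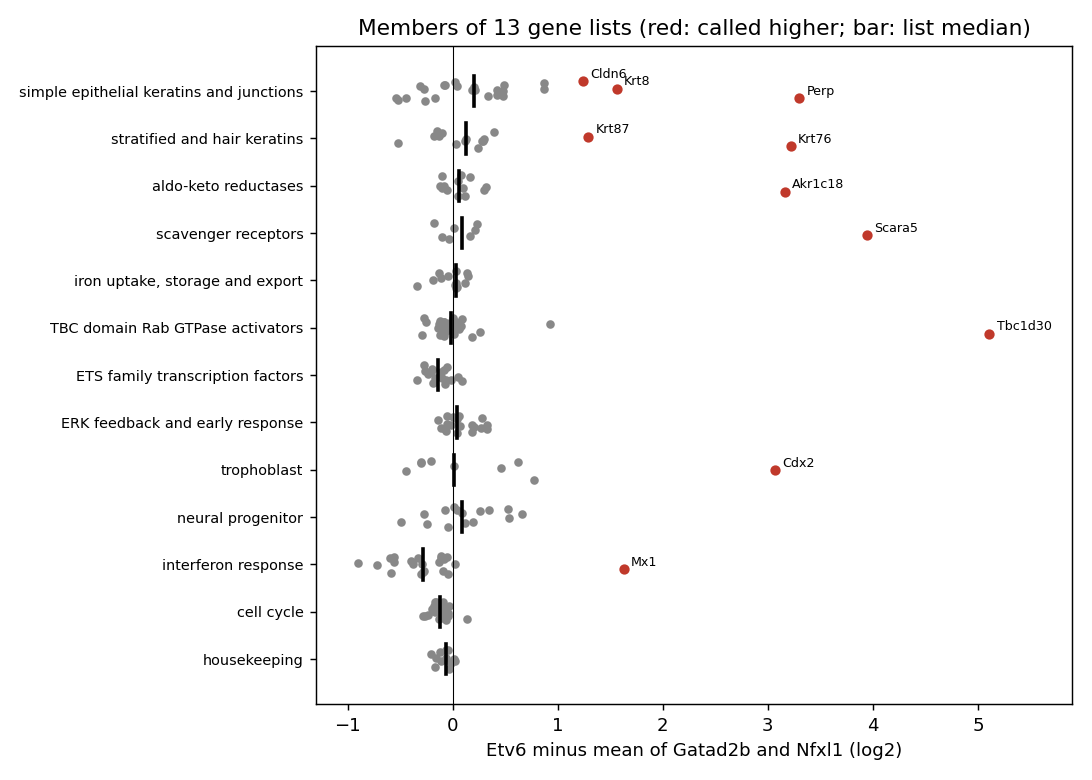
Etv6 level minus the mean of Gatad2b and Nfxl1 (log2) for each tested member of 13 gene lists. Red points are called higher and named, grey points are not called, and black bars are list medians. Single members, some of them markers given with the comparison, stand out from lists whose medians lie between -0.28 and 0.20.

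Tbc1d30 had the highest lower bound. Its level was -1.41 on Etv6, while the spot was not well above background on Gatad2b, Nfxl1 or mock and read -6.34 on EGFP (chr10:120754615-120754674). Etv6 was at least 34.6-fold above the references. A second Tbc1d30 probe read -4.91 on Etv6 and was at the floor on both references, also above 2-fold but far dimmer. Other settings changed the order of the genes. Among the genes named by rule, Mgam (6.85 log2) and Zfp641 (5.93) stood above Tbc1d30 (5.78) without a floor. Ccdc88b (3.23) and Akr1c18 (3.05) did so after normexp (Tbc1d30 2.60). As means of probes, Ccdc88b (3.79) and Zfp641 (3.72) stood above it (3.36).

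The promoters of the leading genes are shown for the markers with a window in RefSeq (Akr1c18, Krt76 and Krt8) and for Ccdc88b and Mkrn3, whose windows hold the ETS core searched. Each window runs from 250 bases before to 50 after the start, is on the minus strand of GRCm38.p6 and is written 5′ to 3′ along the gene. Capitals mark CGGAAG or its reverse complement CTTCCG. The windows are chr13:4150597-4150896 for Akr1c18, chr15:101892871-101893170 for Krt76, chr15:102004293-102004592 for Krt8, chr19:6858162-6858461 for Ccdc88b and chr7:62420104-62420403 for Mkrn3.
Akr1c18: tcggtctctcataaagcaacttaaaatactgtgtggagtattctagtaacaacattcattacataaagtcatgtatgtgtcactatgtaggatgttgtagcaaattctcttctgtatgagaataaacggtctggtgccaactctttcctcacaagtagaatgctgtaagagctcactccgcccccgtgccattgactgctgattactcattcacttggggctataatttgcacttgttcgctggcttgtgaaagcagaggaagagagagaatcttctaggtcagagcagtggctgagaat
Krt76: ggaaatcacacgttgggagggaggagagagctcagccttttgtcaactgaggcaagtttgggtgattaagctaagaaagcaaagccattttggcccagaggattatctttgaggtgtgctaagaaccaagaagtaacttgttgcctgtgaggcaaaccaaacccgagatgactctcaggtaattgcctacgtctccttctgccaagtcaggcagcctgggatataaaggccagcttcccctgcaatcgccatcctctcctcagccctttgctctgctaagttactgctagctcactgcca
Krt8: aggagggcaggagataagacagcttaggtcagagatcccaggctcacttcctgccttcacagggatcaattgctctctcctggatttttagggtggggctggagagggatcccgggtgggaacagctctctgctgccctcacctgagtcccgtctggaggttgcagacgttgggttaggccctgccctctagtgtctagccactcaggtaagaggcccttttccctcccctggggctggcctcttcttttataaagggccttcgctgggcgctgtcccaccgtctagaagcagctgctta
Ccdc88b: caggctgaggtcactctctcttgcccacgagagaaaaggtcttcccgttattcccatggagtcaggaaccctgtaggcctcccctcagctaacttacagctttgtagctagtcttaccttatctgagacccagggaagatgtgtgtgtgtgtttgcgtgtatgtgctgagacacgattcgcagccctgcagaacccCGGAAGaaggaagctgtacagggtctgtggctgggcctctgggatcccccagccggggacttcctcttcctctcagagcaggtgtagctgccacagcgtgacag
Mkrn3: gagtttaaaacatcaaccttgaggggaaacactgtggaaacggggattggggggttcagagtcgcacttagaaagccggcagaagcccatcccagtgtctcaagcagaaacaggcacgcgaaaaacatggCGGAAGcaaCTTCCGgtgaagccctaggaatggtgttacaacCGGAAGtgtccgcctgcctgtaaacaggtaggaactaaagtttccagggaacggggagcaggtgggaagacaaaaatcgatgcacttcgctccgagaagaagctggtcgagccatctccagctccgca

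The windows of Akr1c18, Krt76 and Krt8 hold no CGGAAG on either strand. That of Ccdc88b holds it at -54 from the start, and that of Mkrn3 at -120, -111 and -78. Among the other genes named by rule, the window of Zfp641 holds it at -11. Over the 132 higher genes with a window, 10 (7.58%) hold CGGAAG on either strand. Of all 11447 tested genes with a window 31.5% hold it, and of the 2946 with a reference mean under -3, 14.3%. The longer CCGGAAGT, which contains CGGAAG, was in 2.27% of the higher genes, 7.98% of all and 2.24% of the dim ones. The bare core GGAA was in 96.2% of the higher genes and 96.2% of all. The median GC content of the windows was 56.3% in the higher genes, 60% in all and 55% in the dim ones. A match is a description of letters and not of binding, and a window without one says nothing about sites elsewhere.

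The other named genes measured on all 3 arrays had varied functions. Amer2, an inhibitor of Wnt signalling, read -2.48 on Etv6, -5.44 on Gatad2b and -5.84 on Nfxl1, an 8.93-fold difference. A second Amer2 probe was not well above background on Etv6, and the mean over its probes was 1.51 log2 higher. Trpa1, an ion channel that senses irritants, read -2.59, -5.53 and -5.57, a 7.78-fold difference. Both were also at least 2-fold above EGFP and mock. Bpifb4, of the family of lipid-binding bactericidal proteins, read -2.68, -5.42 and -5.28, and Itgbl1, a secreted integrin beta-like protein, read -1.20, -3.74 and -3.90. They were 6.34-fold and 6.18-fold higher.

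Cavin4, a caveola protein of muscle, read -0.50 on Etv6, -2.69 on Gatad2b and -2.49 on Nfxl1, a 4.27-fold difference with the controls at -2.71 and -2.87. Sp6, a zinc-finger factor of tooth and hair epithelium, was 5.32-fold higher at -2.48, -5.10 and -4.68. A second Sp6 probe was not well above background on Etv6, and the mean over its probes was 1.24 log2 higher. Rasgrf1, which activates Ras, was 5.31-fold higher at -3.45, -5.96 and -5.75, and lost its call after normexp (0.82 log2). Of its 3 other probes, the brightest read -4.35 on Etv6, was at the floor on Gatad2b and read -6.40 on Nfxl1, and the other two were not well above background on Etv6. Rassf9, a Ras-association protein, was 4.56-fold higher on an uneven spot, and 0.95 log2 higher after normexp. Mkrn3, an imprinted RING-finger gene, was 6.49-fold higher than the references at -2.71, -5.06 and -5.75 but only 0.92 log2 above EGFP (-3.63).

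**Figure D3:**
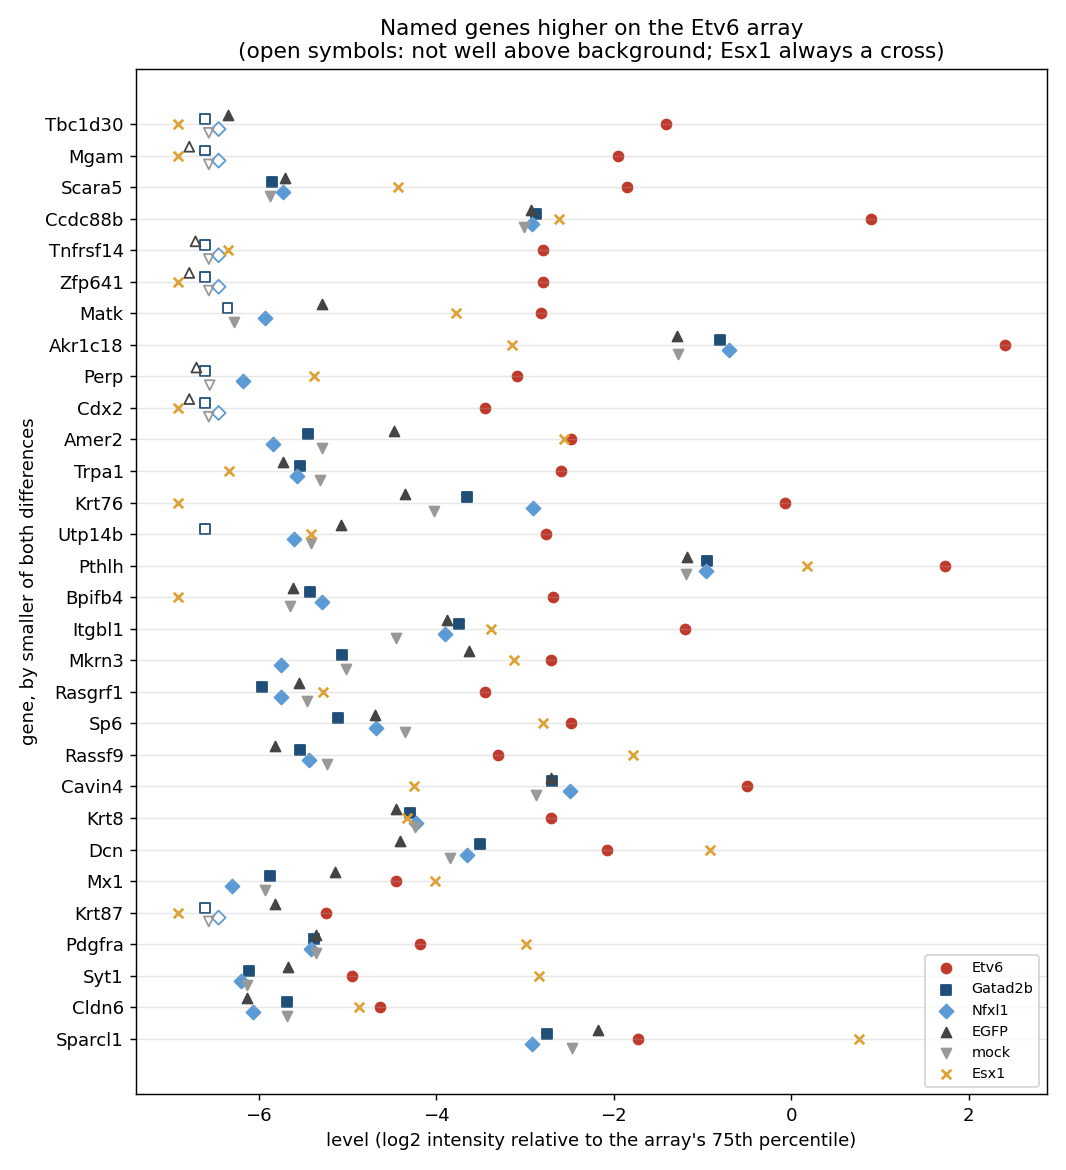
Level (log2 intensity relative to the array's 75th percentile) of the 30 named higher genes on the Etv6, Gatad2b, Nfxl1, EGFP, mock and Esx1 arrays, ordered by the smaller of the differences from Gatad2b and Nfxl1. Filled symbols are well above background and open symbols are not, except that Esx1 is always a cross. In all 30 genes the Etv6 point lies to the right of the Gatad2b, Nfxl1, EGFP and mock points, while Esx1 varies. For Gatad2b and Nfxl1 this side is fixed by the call.

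The brightest genes are those where repeated spots varied less than at dim levels. Of the 216 higher genes, 19 reached a level of 0 or more on Etv6, and all 19 had even spots. They were picked out for their level after their values were seen. Csrp2, a LIM-domain protein of smooth muscle and other cells, was the brightest at 5.68 on Etv6, 4.62 on Gatad2b and 4.56 on Nfxl1, with 4.59 on EGFP and 4.47 on mock, a 2.13-fold difference. Angptl4, a secreted inhibitor of lipoprotein lipase, read 2.08, -0.12 and 0.14, with -0.58 and -0.09 on the controls, a 4.19-fold difference. Igfbp3, which binds insulin-like growth factors, read 1.38, -0.15 and 0.14 and was 2.61-fold higher. In each of these Etv6 stood above all 4 other arrays by at least 1 log2.

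Among receptors and adhesion proteins, Itgb4, the laminin-binding integrin of hemidesmosomes, read 0.42 on Etv6, -1.17 on Gatad2b and -1.44 on Nfxl1, and another probe 0.23, -1.39 and -1.49. The dimmest Itgb4 probe read -5.67, -6.55 and -6.45, under 2-fold. Crhr1, the receptor of corticotropin-releasing hormone, read 0.99, -0.55 and -0.49, and was 2.85-fold higher. Lhx1, a homeodomain factor, read 0.37, -1.03 and -0.88. All 3 were at least 2-fold above EGFP and mock too. Cst6, a secreted protease inhibitor, was 2.71-fold higher at 1.58, 0.08 and 0.20. Col2a1, a cartilage collagen, read 0.11, -0.92 and -0.92 but stood at 0.15 on EGFP and 0.08 on mock, so Etv6 lay between the controls.

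Of the higher genes not well above background on a reference, 92 in all, 6 were named by their level. Mgam, an intestinal maltase, was at least 23.9-fold higher at -1.95 on Etv6 and at the floor on both references and both controls. Tnfrsf14, a receptor of the tumour necrosis factor family, and Zfp641, a zinc-finger gene, each at -2.80, were both at least 13.2-fold higher. Second probes of Mgam and Tnfrsf14 were not well above background on Etv6, and means over probes were 2.32 and 1.89 log2 higher. Utp14b, a gene of ribosomal RNA processing, was at least 10.1-fold higher and Matk, an inhibitory tyrosine kinase, at least 9.97-fold. These 5 all had uneven spots, with a pixel SD of 0.325 to 0.429 of the spot mean. The spot of Tbc1d30, the sixth, was even at 0.147, as was that of Perp at 0.188.

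Evenness of the spots divided the higher genes. It is the SD over the pixels of a spot divided by their mean, and a spot above 0.3 is called uneven, a limit added after the data were seen. Of 9150 genes not higher on Etv6 in the same range of level, 0.219% were uneven. Of the 124 fully measured higher genes, 12 (9.68%) were uneven, with a median of 0.183. Of the 92 with a reference not well above background, 56 (60.9%) were uneven, with a median of 0.34. On the Gatad2b array 21 of 34 (61.8%) and 101 of 116 (87.1%) were uneven, and on Nfxl1 9 of 20 (45%) and 46 of 56 (82.1%). With even spots only, 148 genes were higher on Etv6 and 2 lower, against 28 and 28 on Gatad2b and 21 and 18 on Nfxl1. The higher genes on Etv6 also lay next to each other on the glass in 26 pairs of 39 genes, 24 of them with uneven spots, such as Mgam beside Unc79 and Tnfrsf14 beside Sox6. Itgbl1, Aldh3a1, Mkrn3, Sp6, Rassf9, Zfp641, Cdx2 and Sparcl1 were also in such pairs. No such count is given for all genes tested or for the references, so the pairs cannot be called many or few. The part of spot evenness in these differences was not tested beyond these counts.

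**Figure D4:**
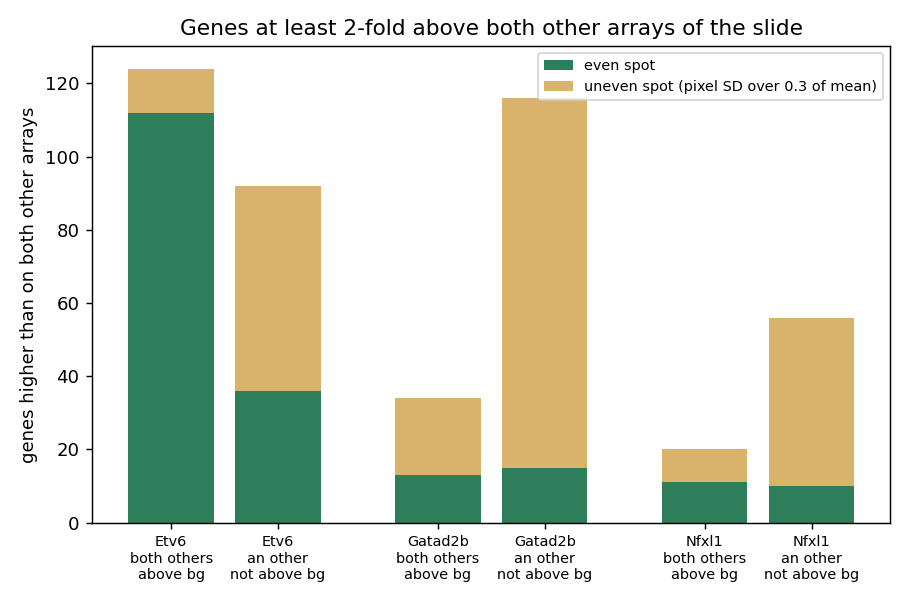
Number of genes at least 2-fold above both other arrays of the slide, for Etv6, Gatad2b and Nfxl1, split by whether both others were well above background (bg). Green marks even spots and tan uneven spots (pixel SD over 0.3 of the mean). Etv6 has 112 even spots among its 124 fully measured genes, against 13 of 34 on Gatad2b and 11 of 20 on Nfxl1.

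Second probes repeat the measurement on the same hybridisation. Of the 216 higher genes, 81 had 114 other probes, of which 69 were not well above background on any of the 3 arrays. Of the 44 that were on at least 1 array and measured on all 3, 33 lay above both references, 7 between them and 4 below both. At least 2-fold above both were 22, and 0 were 2-fold below both. The 22 probes belong to 22 genes, all with even spots. The genes are Cbfa2t3, Cited4, Col2a1, Cpne8, Crhr1, Cttnbp2, Cxcr4, Ddit4l, Gch1, Id4, Igfbp3, Itgb4, Krt8, Lhx1, Lrrc15, Pacsin1, Padi4, Phlda2, Pthlh, Rasgrf1, Sparcl1 and Tbc1d30. The probe of Dync1i1 went the other way against 1 reference, not well above background on Etv6 and at -5.07 on Gatad2b. The second probe of Matk opposed the call at -6.07 on Etv6, -5.42 on Gatad2b and -6.04 on Nfxl1. For Scara5, Amer2, Sp6, Mgam, Tnfrsf14, Cst6, Dcn, Mx1, Syt1, Pdgfra and Rapgef4, no other probe was well above background on Etv6. Their differences rest on 1 probe each. So do those of the higher genes without another probe, among them Ccdc88b, Akr1c18, Krt76, Trpa1, Bpifb4 and Itgbl1. Phlda2, an imprinted gene that limits placental growth, read -0.65, -2.79 and -2.52 on the used probe and -2.40, -4.20 and -4.70 on the other.

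**Figure D5:**
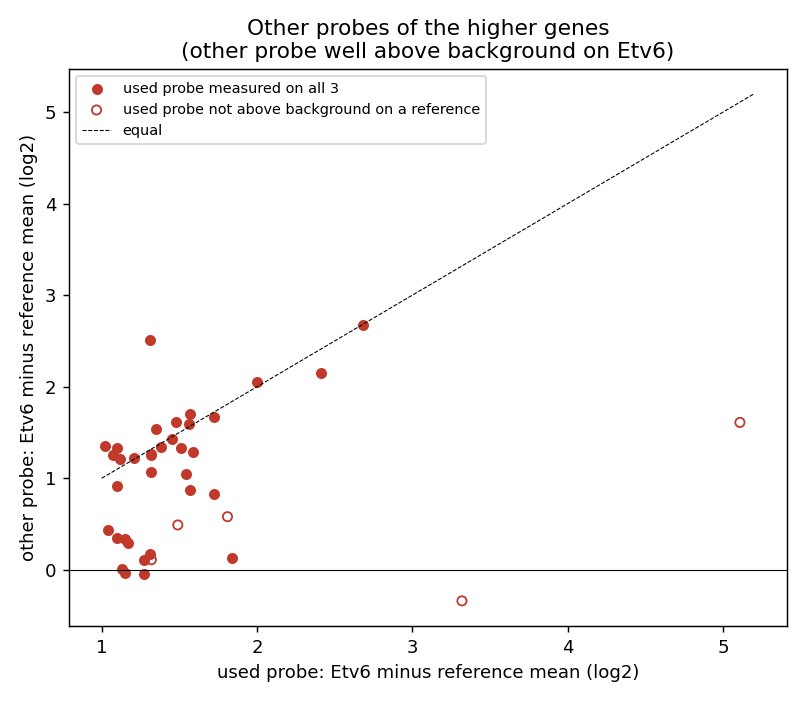
Etv6 minus the reference mean (log2) on the probe used for a higher gene (horizontal) and on another probe of that gene (vertical), for other probes well above background on Etv6 and measured on both references. Keeping only probes bright on Etv6 favours positive values here. The dashed line marks equal differences. Filled points, whose used probe was measured on all 3 arrays, mostly lie between 1 and 2.7 on both axes or near 0 on the other probe, and the rightmost open point is Tbc1d30.

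Against the arrays of the other slide, 175 of the 216 higher genes (81% of them and 0.964% of genes tested) were also at least 2-fold above EGFP and mock, and 211 were above both by any amount. None of the 3 lower genes was at least 2-fold below both controls. The same check left 118 of 150 higher and 19 of 31 lower genes on Gatad2b and 57 of 76 and 18 of 23 on Nfxl1. The Etv6 array is the same in both comparisons, so this is no second measurement of it. Of the higher genes, 92 were fully measured, on even spots and beyond the controls too.

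The 3 lower genes were dim, and Sox7 and Olfr1131 were close to the threshold. Sox7, an endoderm and vessel transcription factor, read -4.52 on Etv6, -3.51 on Gatad2b and -3.52 on Nfxl1, with -3.76 on EGFP and -3.58 on mock. Its difference from the reference mean of -1.01 log2 was just past the threshold. A second Sox7 probe read -6.07 on Gatad2b and was at the floor on Etv6 and Nfxl1. The Sox7 difference was -0.61 log2 as the mean over probes and -0.40 after normexp, both under 2-fold. Tnxb, an extracellular matrix gene, was not well above background on Etv6, read -4.36 and -4.58 on the references and was also near the floor on EGFP (not well above background) and mock (-6.25). Etv6 thus lay with the controls, below both references. A second Tnxb probe was at the floor on Etv6, Gatad2b and Nfxl1. The Tnxb difference was -0.96 log2 as the mean over probes and -0.66 after normexp, both under 2-fold. The last was an olfactory receptor gene, Olfr1131, at -4.48, -3.47 and -3.47.

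At the threshold itself the order was fine-grained. Just inside were Klra16 at a smaller difference of 1.0060 log2, Dmp1 at 1.0069 and C2cd4c at 1.0082. Just outside were Serpinb1a at 0.9954, Clu at 0.9900 and P2rx6 at 0.9892. On the lower side Cxcl14 missed at -0.9559.

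Genes of the ETS family and of known Etv6 partners were not called. Of 18 tested ETS genes, 0 were called in either direction, and 14 (77.8%) lay below both references against 37.7% of all genes, with a median of -0.14 log2. Etv1 read 1.56, 1.68 and 1.59, Elk3 4.47, 4.55 and 4.52, and Elf2 1.08, 1.39 and 1.45. Housekeeping genes also lay below both references in 9 of 12, with a median of -0.06. None of 11 tested corepressors and partners of Etv6 was called, with a median of -0.02. None of 19 tested ERK feedback genes was called either, and Dusp6 read 5.71, 5.58 and 5.72.

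Cell cycle genes lay a little below the references without being called. Of 22 tested, 0 were called and the median was -0.12 log2. Below both references lay 18 (81.8%), against 37.7% of all genes and 75% of the housekeeping genes. The housekeeping list was about as bright, with a median level of 4.19 on Etv6 against 4.23, so this position was not particular to cell cycle genes. Mki67 read 4.62 on Etv6, 4.87 on Gatad2b and 4.71 on Nfxl1, and Ccnb2 4.96, 5.35 and 5.14. Interferon response genes had a median of -0.28 log2 with 13 of 22 below both, while Mx1 alone was called higher, at -4.45, -5.87 and -6.30, and lay less than 2-fold above EGFP at -5.14. Oasl2 read -3.85, -2.78 and -3.11, and Isg15 -0.26, 0.22 and 0.02.

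Markers of other cell types did not move as lists. Of 9 tested neuron markers 1 was called (Syt1, at -4.95, -6.11 and -6.20), of 8 astrocyte markers 1 (Sparcl1, at -1.72, -2.75 and -2.92) and of 8 oligodendrocyte lineage markers 1 (Pdgfra, at -4.18, -5.38 and -5.41). Of all genes tested, 1.19% were called higher, and 1 call in a list this short exceeds that share. The list medians were, in that order, 0.10, 0.18 and -0.01 log2, against -0.02 over all genes. Syt1 and Sparcl1 were not 2-fold beyond the controls. Of 9 tested trophoblast markers only Cdx2 was called, at -3.45 on Etv6 and at the floor elsewhere, on an uneven spot (0.446), and Elf5, Hand1, Tpbpa and Gcm1 were not well above background. Cdx2 was tested only through its Etv6 spot, and none of the 7 fully measured trophoblast markers was called. Of 14 fibroblast and matrix markers only Dcn was called, at -2.07, -3.51 and -3.65, and the list's summed intensity was 533, 543 and 512. No endothelial, blood, muscle or pluripotency marker was called, and of endoderm markers only Sox7, as lower.

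The Esx1 array of the same slide did not follow Etv6. Of the 216 higher genes, 96 were below both references on Esx1 and 44 were above the Etv6 level there, and Etv6 was the highest of the 12 arrays in 155. Krt76, Tbc1d30 and Bpifb4 were at the floor on Esx1, whereas Dcn reached -0.91 and Sparcl1 0.76.

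Some higher genes were neighbours in the genome. Within 200 kb of each other lay 8 pairs, among them Krt76 and Krt8, Sparcl1 and Dmp1, Etnk2 and Sox13, and Cftr and Cttnbp2. No such count is given for all genes tested or for other sets of this size, so the pairs cannot be called many or few. The pairs Klra4 with Klra7 and Gsta1 with Gsta2 belong to families of near-identical genes, whose probes may read each other's RNA and whose separate values are uncertain.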

How the data were processed

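RNA was hybridised to 1-colour (Cy3) Agilent whole mouse genome arrays, labelled from 0.25 µg. The deposited files hold spot intensity values from Agilent Feature Extraction 10.7.3.1, which per the file headers are background-subtracted and detrended (gProcessedSignal). The authors' table of values equals that column on every array, with no scaling between arrays. Flags for outlier and well-above-background spots, the spot grid and the pixel SD come from the same deposited files. What the authors did beyond the image software was not given in the sources used here. The files place probes on mm7.

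Outlier spots were left out and repeated spots averaged. Values were set to log2 relative to each array's 75th percentile over non-control spots, then floored at the lowest well-above-background signal. Probes were named by RefSeq accession (23082), symbol (6582), synonym (3073) or as in the files (8437). A gene took its probe with the highest mean over the 12 arrays. Promoter windows were taken from RefSeq (GRCm38.p6). Because each group has 1 array, the number of arrays limits the precision and no test was made. Counts are of genes beyond both references, read beside the share of all genes tested.

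Named in the text are the 5 markers given with the comparison, the overexpressed genes, for each direction the 14 called genes, all fully measured, whose smaller difference was largest, up to 6 of highest level among those not fully measured, and called members of the lists. Unnamed clones, predicted genes and chemosensory receptors of the olfactory and vomeronasal kinds were passed over, except Olfr1131, named because only 3 genes were lower. Other genes were chosen after their values were seen. The members, lists and rules were chosen with earlier results of these data known. Alternatives were quantile normalization, median scaling, normexp (offset 50, limma 3.58.1 in R 4.3.3), no floor, the mean of probes, a stricter filter, a 3-fold threshold and each reference alone. Other computations used Python 3.11.15 with pandas 2.3.3 and numpy 2.4.6.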

Additional observations from a re-analysis of the deposited data

How the results depend on the processing

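Higher genes outnumbered lower genes on Etv6 under every alternative run, but the counts moved. Normexp left 59 higher and 0 lower genes on Etv6, 58 higher genes beyond EGFP and mock, 12 higher and 4 lower on Gatad2b, 7 and 3 on Nfxl1, and 4 second probes. All 59 were among the 216. With no floor, 14 genes were lower on Etv6, 4 of them beyond the controls, 262 were higher on Gatad2b, and 125 were higher and 87 lower on Nfxl1. Means over probes gave 1 lower gene on Etv6 and 12 on Nfxl1, and quantile normalization 14 second probes. With only the fully measured genes, 124 were higher on Etv6 (101 beyond the controls), 34 on Gatad2b and 20 on Nfxl1. At 3-fold, 85 were higher and 1 lower on Etv6 (69 higher beyond the controls), 72 and 7 on Gatad2b and 34 and 2 on Nfxl1, with 4 second probes. With Gatad2b alone as reference 177 genes were lower on Etv6, and with Nfxl1 alone 89. Added after seeing the data, a 1.5-fold threshold gave 548 higher and 63 lower on Etv6 (403 and 47 beyond the controls), 321 and 141 on Gatad2b, 197 and 207 on Nfxl1 and 62 second probes. Also added after seeing the data, even spots alone left 116 genes higher on Etv6 beyond the controls, 28 higher on Gatad2b and 21 on Nfxl1. The fewer genes under the stricter filter, the higher threshold and the even spots follow from their construction, and the cause of the other changes was not tested. Quantile normalization kept 184 higher genes and median scaling 198, all among the 216. No paired analysis was possible because each group has 1 array. Array intensities near background limit the dim genes, since a difference there is only bounded.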

Other observations

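A pair of gene families drew attention among the higher genes and were listed only after their values were seen, so their counts are a description. Of 16 genes of the aryl hydrocarbon receptor response and of glutathione metabolism, 15 were tested, 5 were higher on Etv6 and 0 lower, where 1.19% of all genes tested were higher, and the median difference was 0.56 log2. After normexp only Gsta1 of the 5 kept its call (1.23 log2). Cyp1a1, the classic target of that receptor, read -4.39 on Etv6 and was not well above background on Gatad2b, Nfxl1, EGFP or mock, at least 4.41-fold higher. It was tested only through its Etv6 spot, as was Gsta3, which was not called. The count of called genes was thus partly set by the filter. Aldh3a1, an aldehyde dehydrogenase, read -2.72, -5.24 and -4.51 on Etv6, Gatad2b and Nfxl1, a 4.45-fold difference. Ahrr, the receptor's repressor, read -2.36, -3.42 and -3.39 but was not 2-fold beyond EGFP (-3.26) or mock (-3.18). The glutathione transferase genes Gsta1 (-1.53, -3.53 and -2.79) and Gsta2 (-3.01, -4.79 and -4.23) were called, though their probes may share RNA. The brighter members Nqo1 (3.48, 2.71 and 2.88) and Hmox1 (2.85, 2.29 and 2.30) were above both references without being called, and Cyp1b1 was below both at 0.51, 0.85 and 0.66.

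Of 17 Ras and Rap exchange factors, which load these GTPases with GTP, 15 were tested and 4 were higher on Etv6, against that same share of all genes, with a median difference of 0.00 log2. None of the 4 kept its call after normexp, where their differences ran from 0.38 to 1.01 log2. Besides Rasgrf1 they were Rasgrp2 (2.13, 1.09 and 1.10), Rasgef1b (-2.99, -4.69 and -4.66) and Rapgef4 (-4.80, -6.13 and -6.03). All 4 were at least 2-fold above EGFP as well, and Sos1 and Sos2, the widely expressed exchange factors, were not called.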
